A study of Mus musculus with 27 samples.

Results

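Cux1, Msx1, Msx2, Dlx1, Dlx2, Dlx3, Foxn1, Gata3 and Foxq1, transcription factor genes that mark or direct the lineages of the growing hair follicle, were followed by symbol through every expression file of the study. All 9 were found, among 51906 rows of the RNA-seq count table and 32285 genes of each single cell matrix. They were read in cells of anagen back skin grouped by markers, in cultured hair follicle stem cells (HFSCs) sorted by hashtag, and in RNA-seq of HFSC cultures from wild-type and Rxra cKO mice.

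The study asked how all-trans retinoic acid (atRA), the active form of vitamin A, acts on HFSCs and their progeny. In vivo cells came from wild-type back skin of 2 mice at postnatal day 32, in full anagen, after a sort meant to deplete CD45, CD31, CD140a and CD117 positive cells. Hashtagged cultures were wild-type HFSCs of 2 mice, drawn from the same anagen skin and grown as colonies in gel. Their media held fetal bovine serum (FBS), the serum-free supplement B-27, B-27 with atRA and a protein kinase C inhibitor (atRA+PKCi), or atRA+PKCi with R-spondin (Rspo), with BMP2 and BMP4 (BMP2/4), with both, or with both and an inhibitor of the retinoic acid receptor (RARi). RNA-seq libraries were made from HFSC lines of telogen skin at postnatal day 55, with 2 mice per genotype and cultures of each mouse in FBS and in atRA+PKCi. Rxra cKO lines carried floxed Rxra deleted by Sox9CreER, so that cells without active Cre could persist, and all lines had first been grown on inactivated feeder cells. The atRA+PKCi medium also had B-27 in place of serum, so that serum, atRA and PKCi cannot be told apart in the comparison of media. Nothing in the labels says whether 1 mouse gave 1 clone or a mixture. The p-values measure only the spread between the 2 lines within a group, pooled over the groups of a fit.

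In anagen, matrix cells at the base of the follicle divide and give rise to concentric layers. The outermost of these is the inner root sheath, a keratinized sleeve that molds the hair, and the innermost are the cuticle, cortex and medulla of the hair shaft. The outer root sheath surrounds them and is continuous with the bulge, where HFSCs reside. Each layer is known for its own transcription factors. Gata3 and Cux1 are linked to the inner root sheath. Msx2, Foxn1 and Dlx3 act in matrix and shaft precursors and are needed for normal hair shafts, and Foxq1 is needed for the medulla. Msx1 and Msx2 are homeobox targets of BMP signaling, and Dlx1, Dlx2 and Dlx3 belong to the distal-less homeobox family. BMP signals, WNT signals and retinoids all feed into these choices of lineage.

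Sequences upstream of the start sites were examined for 7 of the 9 genes, those with an entry in the RefSeq promoter table (GRCm38.p6). Dlx3 and Foxq1 are named only. The 3 printed here belong to the gene with the largest change of medium response between genotypes (Foxn1), the gene with the largest difference between genotypes in FBS (Msx1), and the gene with the largest fall from FBS to atRA+PKCi in Rxra cKO (Dlx2). Each runs 5′ to 3′ on the strand of its gene and ends at the base before the start site, at chr11:78386609-78386858 (minus strand), chr5:37824586-37824835 (minus strand) and chr2:71546755-71547004 (minus strand). Capitals mark TAATTA, the core bound by many homeodomain factors, GGCGCC, a GC-rich motif bound by SMADs, and AGGTCA, the motif to which retinoid receptors bind as pairs, on either strand.
Foxn1: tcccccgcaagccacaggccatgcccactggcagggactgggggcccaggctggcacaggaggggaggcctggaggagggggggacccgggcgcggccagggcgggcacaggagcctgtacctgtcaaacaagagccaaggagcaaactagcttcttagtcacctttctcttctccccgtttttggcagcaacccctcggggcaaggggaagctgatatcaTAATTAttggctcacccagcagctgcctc
Msx1: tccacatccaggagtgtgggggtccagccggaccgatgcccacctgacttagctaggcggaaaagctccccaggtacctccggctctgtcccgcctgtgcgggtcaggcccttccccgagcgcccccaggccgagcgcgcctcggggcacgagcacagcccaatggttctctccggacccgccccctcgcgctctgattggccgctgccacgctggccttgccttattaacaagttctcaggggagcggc
Dlx2: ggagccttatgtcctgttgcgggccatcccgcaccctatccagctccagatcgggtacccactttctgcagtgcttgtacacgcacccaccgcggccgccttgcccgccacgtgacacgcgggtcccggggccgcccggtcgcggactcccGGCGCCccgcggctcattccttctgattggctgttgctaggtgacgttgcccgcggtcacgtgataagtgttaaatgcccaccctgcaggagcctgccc

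TAATTA stood in the 250 bases upstream of Foxn1 and of Msx2, against 4.84% of 32851 promoters of this length. GGCGCC stood upstream of Dlx2 and Gata3 (9.59% of all promoters), and AGGTCA or its reverse complement upstream of Dlx1 (14% of all promoters). No motif overlapped another in these windows, and Msx1 and Cux1 held none of the 3. GC content lay between 61.6% (Msx2) and 70% (Gata3) in the 7 windows, all above the upper quartile of all promoters, 61.2%. These are matches of letters and say nothing of binding.

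The in vivo matrices held 14458 and 13915 cells that passed the filters on genes, UMIs and mitochondrial share, with medians of 8869 and 10594 UMIs, and 27233 cells remained after predicted doublets were removed. Of the barcodes of cells that passed, 46 were found in both matrices. Clustering without the 9 genes gave 44 clusters, of which 30 were named by marker lists. Of the named classes, 5 were taken as layers of the follicle below the bulge. They held 1726 matrix-like, 2318 inner root sheath-like, 770 cortex-like, 1071 medulla-like and 1545 outer root sheath-like cells. Epithelial clusters 10, 17, 19 and 21 were unnamed and belong to none of these classes. Markers were highest in the class of their own name for 11 of 12 cortex markers and 6 of 9 inner root sheath markers that the matrices held, and for 4 of 12 matrix, 3 of 9 medulla and 4 of 12 outer root sheath markers. The summed markers of these last 3 lists were higher in another class than in their own, so that these names are less firm than cortex and inner root sheath. In the inner root sheath-like class, cluster 11 had no sheath marker among its leading genes, while clusters 13 and 14 had 3 and 4. The name is less firm for cluster 11. Despite the sort, 8652 cells were fibroblast-like. Their levels are given beside the follicle values. Free RNA in droplets can lend cells a low share of the follicle's transcripts. Its part in these levels was not tested and cannot be told apart from expression in the cells. Levels are in counts-per-million units (CPM), a gene's UMIs over the summed UMIs of a class in 1 mouse. The protocol counts 1 tag per molecule, and levels are set side by side between genes without a correction for length. An effect of gene length on them was not tested. No test was made between classes, because classes were found in the same cells, and values of mouse 1 are given first.

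Inner root sheath-like cells held the highest class level of Cux1, Gata3, Foxn1 and Dlx1. Medulla-like cells held that of Foxq1, Dlx3 and Msx1, cortex-like cells that of Msx2, and matrix-like cells that of Dlx2. Outer root sheath-like cells were at or below 33.5 CPM for all but Cux1 and Gata3. With predicted doublets kept, Cux1 and Dlx1 were highest in matrix-like and Msx2 in medulla-like cells. Msx1 and Msx2 also changed to the neighbor with which their ranges overlap (matrix and medulla) at a finer clustering and with a stricter filter on cells.

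**Figure D1:**
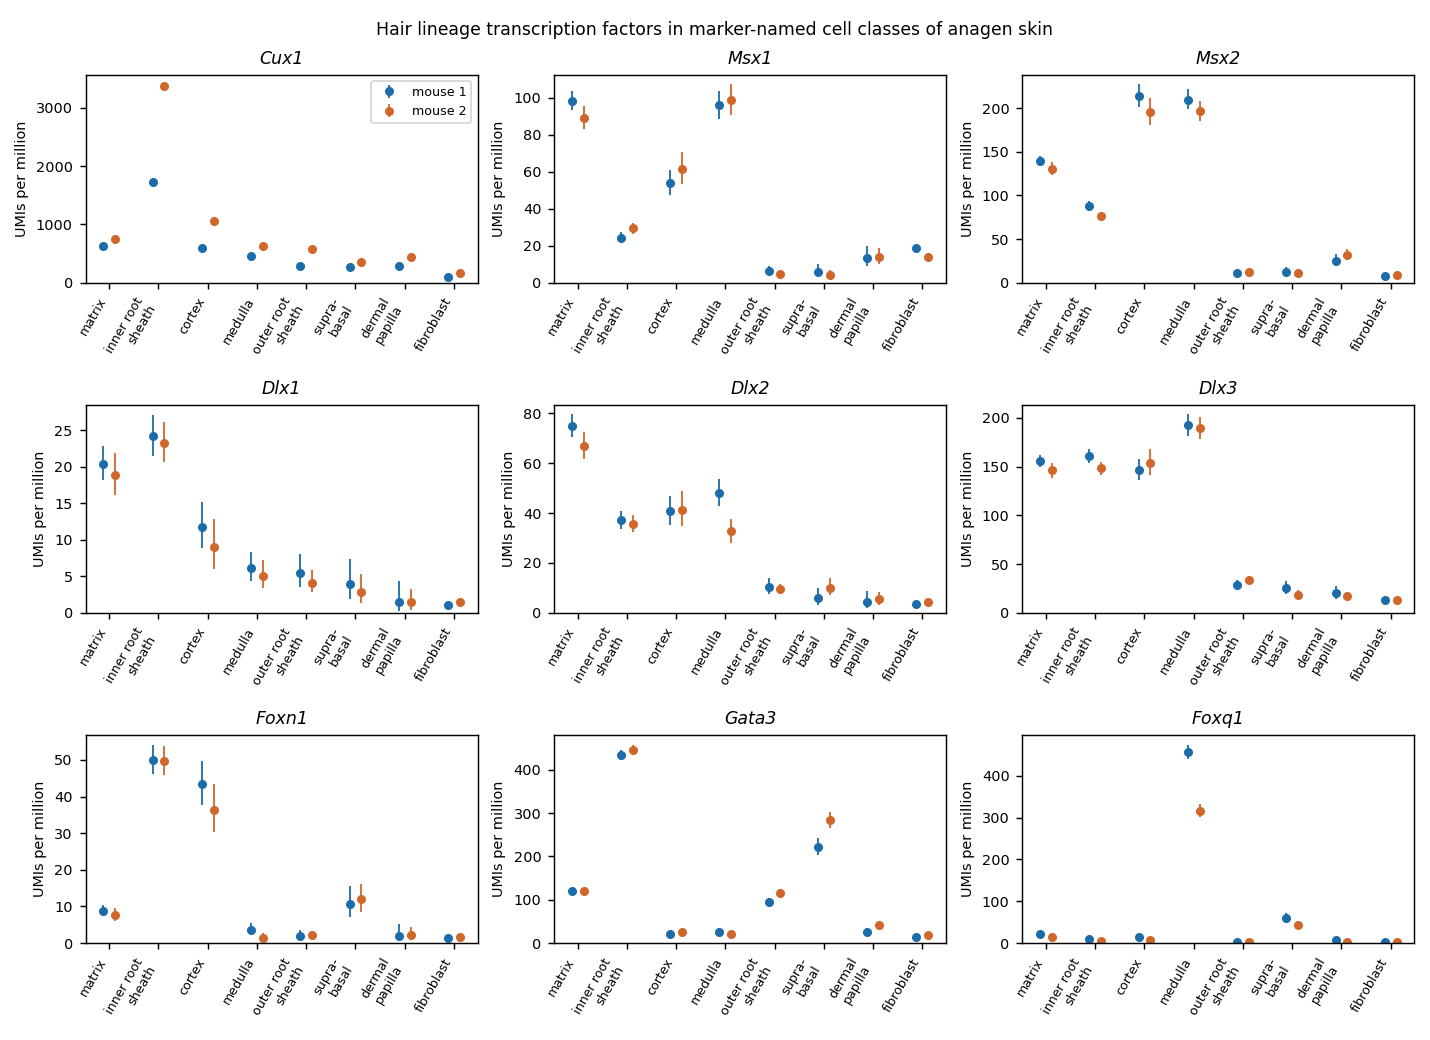
CPM of the 9 genes (y axes, linear, each from 0) in 8 marker-named classes of anagen skin (x axes). Points are mice 1 and 2 and bars are 95% Poisson intervals, which cover counting error only; Foxq1 stands out in the medulla and Gata3 and Cux1 in the inner root sheath, while Dlx3 lies between 146 and 193 in the matrix, inner root sheath, cortex and medulla of both mice.

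Gata3 (chr2:9857078-9890034, minus strand), a zinc finger factor needed for the inner root sheath, measured 435 and 446 CPM in inner root sheath-like cells. It was 3.59 and 3.72 times its matrix-like level of 121 and 120 CPM. In the shaft it was low, at 20.99 and 26.0 CPM in cortex-like and 26.0 and 20.5 CPM in medulla-like cells, close to 14.4 and 19.8 CPM in fibroblast-like cells. Gata3 was not limited to the sheath. Suprabasal cells of the epidermis and infundibulum held 222 and 284 CPM, upper follicle and bulge cells 177 and 137 CPM, and outer root sheath-like cells 95.2 and 116 CPM. An unnamed cluster led by Krt8, Krt18 and Krt7 (cluster 37) held 491 and 522 CPM. The 3 inner root sheath-like clusters ran from 595 and 507 CPM in cluster 11 to 428 and 406 CPM in cluster 14 and 399 and 390 CPM in cluster 13.

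Cux1 (chr5:136248135-136567490, minus strand), a CUT homeobox factor, had the highest level of the 9 in matrix-like, inner root sheath-like, cortex-like and outer root sheath-like cells. Its gene also makes the Golgi protein CASP from shared exons, and counts per gene do not separate the products. Its level was not corrected for the length of the gene. Inner root sheath-like cells held 1722 and 3376 CPM, against 626 and 756 CPM in matrix-like, 602 and 1062 CPM in cortex-like, 455 and 623 CPM in medulla-like and 291 and 582 CPM in outer root sheath-like cells. Mouse 2 was above mouse 1 in all 5 layers, but no value of another named layer reached the lower of the inner root sheath values. The level depended on which cells were kept: the mean over mice went from 2549 CPM to 1455 CPM with doublets kept and to 1593 CPM with the stricter filter. Cluster 11, led by Cdh6, Nhs and Robo1, held 3619 and 4799 CPM and made up 232 of 1191 cells in mouse 1 and 603 of 1127 in mouse 2. Clusters 13 and 14, which carry the sheath keratins Krt71, Krt25 and Krt73, held between 1404 and 2232 CPM. Outside the named layers, cluster 17, unnamed and led by Fgf5 and with Lgr5, Vdr and Krt15 among its leading genes, held 2772 and 3903 CPM. The outer root sheath-like clusters differed, with 175 and 227 CPM in cluster 6 and 1475 and 1525 CPM in cluster 22.

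Foxn1 (chr11:78357577-78386558, minus strand), the forkhead factor lost in nude mice, was at 50 and 49.6 CPM in inner root sheath-like and at 43.4 and 36.4 CPM in cortex-like cells. The ranges over mice did not overlap. Matrix-like cells held 8.77 and 7.68 CPM and medulla-like cells 3.70 and 1.39 CPM, near the 1.44 and 1.72 CPM of fibroblast-like cells, so that the 2 hair shaft layers stood apart in this gene. Within the inner root sheath, cluster 11, the highest of its clusters in Gata3 and Cux1, was the lowest in Foxn1, at 34.3 and 26.9 CPM. Cluster 13, with histone and mitotic genes beside its keratins, held 47.4 and 55.4 CPM, and cluster 14 held 60.4 and 91.0 CPM. An unnamed cluster with Krt6a, Krt17 and Sox9 among its leading genes (cluster 21) held 33.8 and 31.0 CPM.

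Foxq1 (chr13:31556134-31560976, plus strand), the forkhead factor lost in satin mice, was the most restricted. Medulla-like cells held 457 and 316 CPM, a mean of 386 CPM that became 661 CPM at the finer clustering and 562 CPM with the stricter filter on cells. Among the 15 classes with at least 50 cells in each mouse, the next, suprabasal, held 60.6 and 43.3 CPM and matrix-like cells held 20.6 and 15.7 CPM, so that the medulla stood 7.54 and 7.30 times over the former and 22.2 and 20.2 times over the latter. Inner root sheath-like, cortex-like and outer root sheath-like cells were between 2.08 and 13.8 CPM. The suprabasal level came mainly from cluster 24, led by Cst6, Krt79 and Defb6, with 78.6 and 55.9 CPM, against 25.7 and 27.2 CPM in cluster 34, led by Krt1 and Krtdap.

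Msx1 (chr5:37820485-37824583, minus strand) and Msx2 (chr13:53466884-53473074, minus strand) shared the shaft and matrix but in different proportion. Msx1 measured 98.4 and 88.9 CPM in matrix-like and 95.8 and 98.7 CPM in medulla-like cells, ranges that overlap, then 53.7 and 61.5 CPM in cortex-like cells. It was 24.4 and 29.3 CPM in the inner root sheath, not far from 18.8 and 14.1 CPM in fibroblast-like cells. Msx2 measured 214 and 196 CPM in cortex-like and 210 and 197 CPM in medulla-like cells, again with overlapping ranges. Matrix-like cells held less Msx2, at 139 and 131 CPM, and inner root sheath-like cells 87.9 and 76.6 CPM. Both genes were low in the outer root sheath, at 6.504 and 4.65 CPM for Msx1 and 10.6 and 12.7 CPM for Msx2. Cluster 17 separated the pair, with 103 and 100 CPM of Msx2 and 9.15 and 9.21 CPM of Msx1.

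Dlx3 (chr11:95120119-95125296, plus strand), which is mutated in a human hair and tooth disorder, was present at a like level in the matrix and in the layers that descend from it. It measured 193 and 189 CPM in medulla-like, 160 and 148 CPM in inner root sheath-like, 156 and 146 CPM in matrix-like and 147 and 154 CPM in cortex-like cells, and the last 3 classes had overlapping ranges. Outer root sheath-like cells held 28.6 and 33.5 CPM and fibroblast-like cells 13.4 in both mice. Dlx2 (chr2:71543408-71546754, minus strand) was highest in matrix-like cells, at 74.9 and 66.9 CPM. The ranges of the next 3 layers overlapped each other in order, with 40.7 and 41.2 CPM in cortex-like, 48.1 and 32.6 CPM in medulla-like and 37.1 and 35.7 CPM in inner root sheath-like cells.

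Dlx1 (chr2:71528113-71533981, plus strand) lies 9426 bases from Dlx2 on the opposite strand and was the lowest of the 3 Dlx genes. It measured 24.2 and 23.3 CPM in inner root sheath-like and 20.4 and 18.9 CPM in matrix-like cells. Unlike Dlx2 it was low in both shaft layers, with 11.7 and 8.96 CPM in cortex-like and 6.11 and 5.03 CPM in medulla-like cells. Cluster 10, unnamed and led by replication genes such as Ung, Hells and Mcm4, held the highest level, 35.9 and 26.8 CPM.

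**Figure D2:**
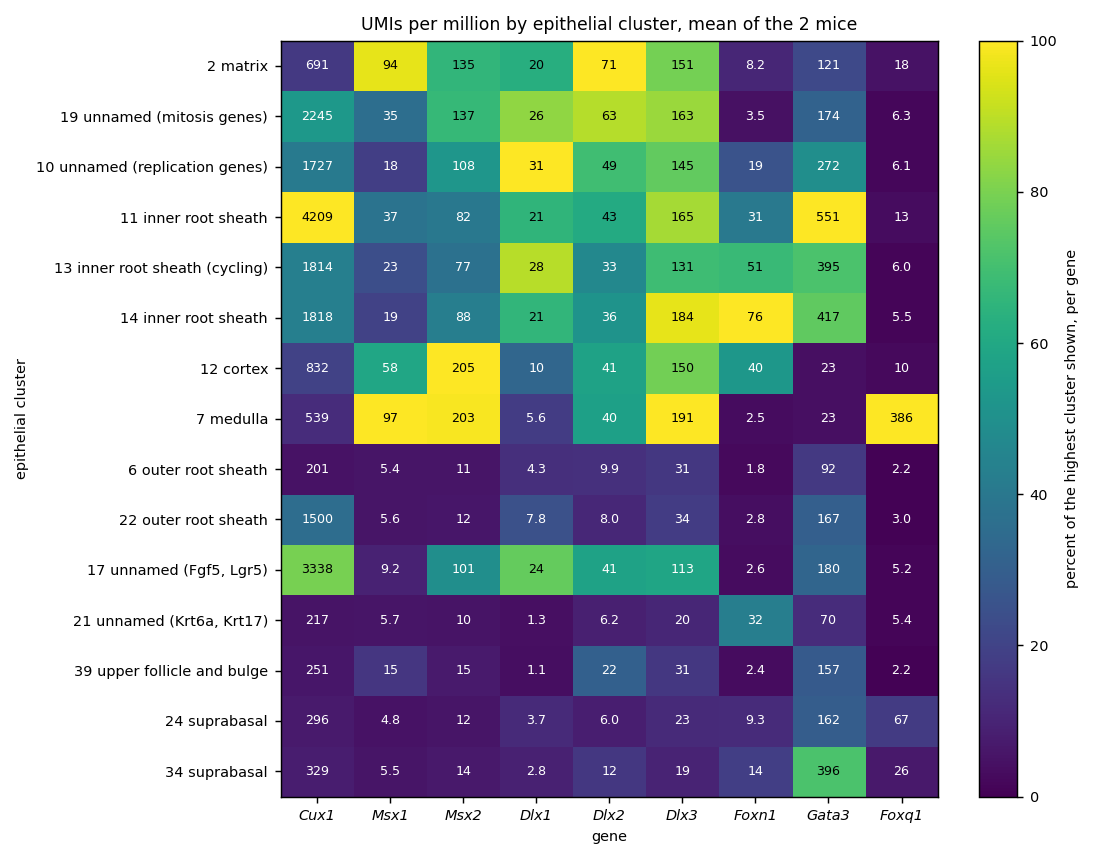
Mean CPM over the 2 mice (numbers in cells) of the 9 genes in 15 epithelial clusters, colored by the percent of each gene's highest cluster shown. Cux1 peaks in cluster 11 and is next in the unnamed cluster 17, Foxn1 peaks in cluster 14, and Foxq1 in cluster 7.

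Genes whose levels followed each factor most closely were sought over 15 classes in both mice, 30 points that share libraries and depth, among 7606 genes that reached 50 CPM in a class. Pearson's r of log2(CPM + 1) is given as a description. Msx2 and Dlx3 were each other's nearest gene (r = 0.91), and Rassf6 ranked in the top 3 of both. Gata3 was nearest to Pou3f1 (r = 0.91), Cux1 to the zinc exporter gene Slc30a1 (r = 0.91), Msx1 to the tight junction gene Cldn10 (r = 0.89), Dlx2 to Ccdc18 (r = 0.85), Foxn1 to the Notch target Nrarp (r = 0.81) and Foxq1 to Krtap15 (r = 0.81), a keratin-associated protein gene. Stra6, a retinol uptake receptor, was the third nearest gene to Msx1 (r = 0.85), with 127 and 97.0 CPM in medulla-like cells. Gm16599, which lies on the opposite strand within Cux1, was nearest to Dlx1 (r = 0.88) and second to Cux1 (r = 0.88).

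Of 32 other regulators of the hair lineages that were listed with the 9, 5 (Dlx5, Dlx6, Foxi3, Elf5 and Ascl4) were under 10 CPM in at least 1 mouse even in their highest class. Of the other 27, 4 were highest in cortex-like, 4 in medulla-like and 2 in outer root sheath-like cells, and 7 in the upper follicle and bulge. Unlike the 9, these regulators were not kept out of the clustering or the marker lists. Lhx2 and Nfatc1 were markers of the upper follicle and bulge, so that their place there was in part fixed by the naming. Hoxc13, Lef1, Tcf7, Sox9, Sox21 and Barx2 were markers of other classes than their highest. Hoxc13, needed for hair keratin expression, measured 625 and 682 CPM in cortex-like cells, and Lef1, which carries WNT signals, 1125 and 1614 CPM there. Prdm1 measured 213 and 235 CPM in medulla-like cells and Barx2 978 and 1060 CPM in the upper follicle and bulge.

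In RNA-seq of cultures, library totals lay between 25150265 and 35879777 estimated counts, and replicate libraries correlated at 0.994 to 0.997 on the log2 scale. The cells were keratinocytes by their markers, with 8796 to 13145 CPM of Krt5 and 6191 to 19736 CPM of Krt14, while the summed level of 7 fibroblast markers was 1.46 to 10.5 CPM, with 2 or 3 of them, Lum included, under 0.05 CPM in each library. Rxra itself was at 149 and 122 CPM in wild-type FBS, 147 and 143 CPM in wild-type atRA+PKCi, 97.2 and 95.7 CPM in Rxra cKO FBS and 148 and 145 CPM in Rxra cKO atRA+PKCi. Counts per gene include the exons that remain after deletion, so Rxra does not check the labels, and the libraries labelled Rxra cKO are taken at their label. All 9 genes passed the filter on low counts and were tested with edgeR's quasi-likelihood test in 1 fit of the 15965 genes that did. CPM of single genes is scaled by TMM from here on, sums and levels of cell type markers are not, and 2 values follow the order of the mouse numbers. Where a library is left out, its group holds 1 library, which is assumed to vary like the other groups.

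Per kilobase of exon, Foxq1 led in every group, with 27.8 and 40.6 CPM per kb as group means in wild-type FBS and atRA+PKCi and 7.58 and 7.13 in the same media in Rxra cKO. Cux1 came next, at 6.29 to 10.5 CPM per kb, and Gata3 and Dlx3 followed with 3.15 and 3.32 in wild-type FBS. Msx1 was last in wild-type cultures, at 0.0482 and 0.0720 CPM per kb, and Dlx1 was last in Rxra cKO, at 0.616 and 0.559. Exon lengths join the exons of all transcripts, which for Cux1 come to 20024 bases and lower its value per kb. Overlapping genes lie on the opposite strand of Dlx1 (Dlx1as), Foxq1 (A530084C06Rik), Gata3 and Cux1, and whether the counting used strand is not given in the sources used here.

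**Figure D3:**
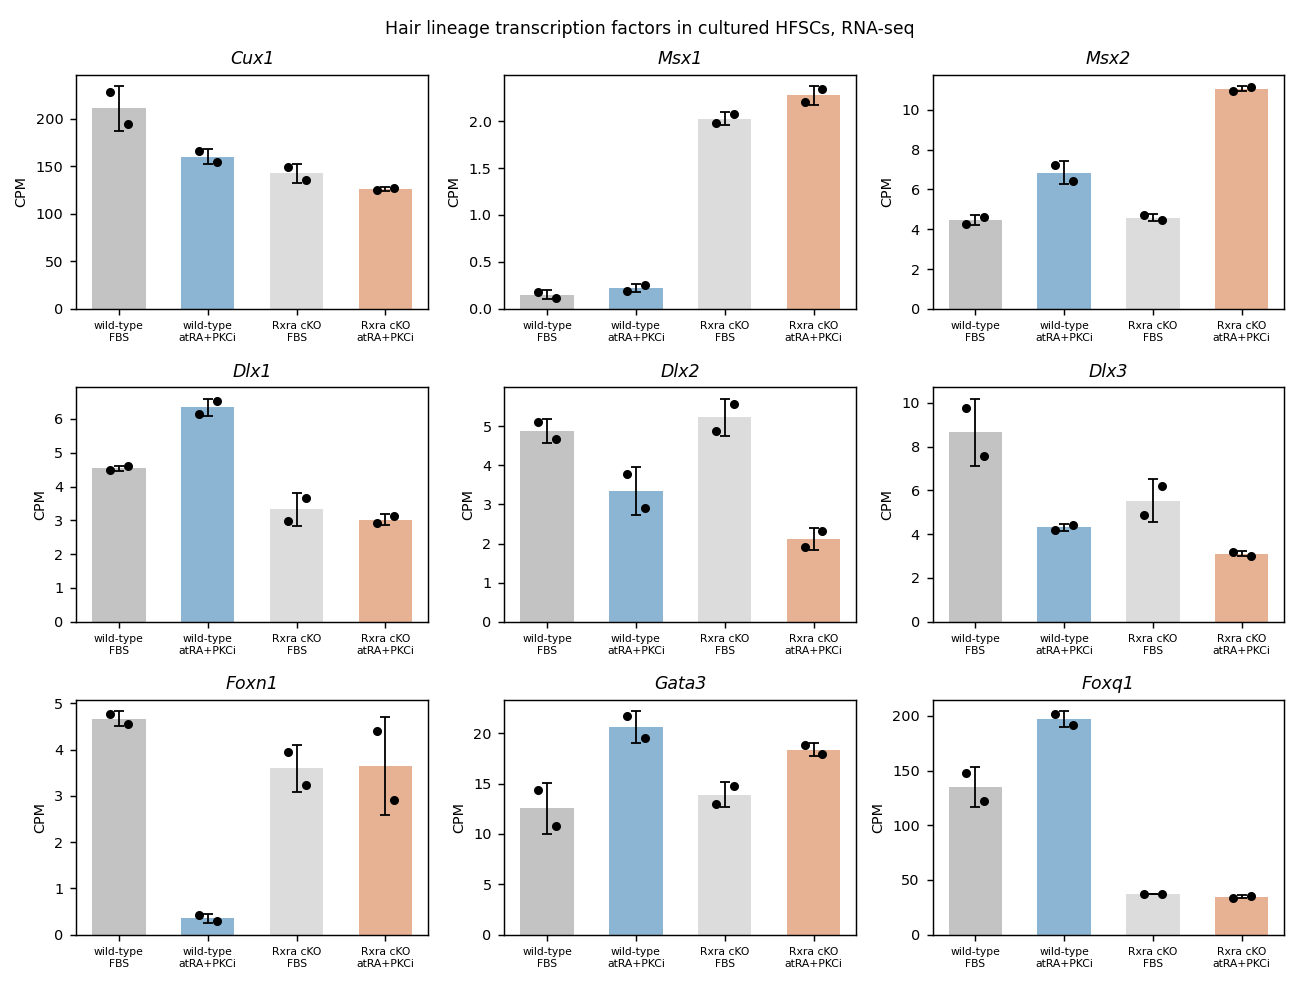
TMM-scaled CPM of the 9 genes in cultured HFSCs (y axes, linear, each from 0). Bars are means of 2 libraries, whiskers their SD and points the libraries, with mouse 1 to the left; Foxn1 is low in wild-type atRA+PKCi and Msx1 low in both wild-type groups.

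In wild-type HFSCs, atRA+PKCi medium moved 8 of the 9 genes relative to FBS (adjusted p under 0.05, edgeR). Over all genes tested, 53.9% were called. Gata3, Msx2, Foxq1 and Dlx1 were higher, in a direction called for 27.2% of all genes, and Foxn1, Dlx3, Dlx2 and Cux1 were lower, in a direction called for 26.6%. The median log2 fold change of the 9 was 0.48, against 0.03 over all genes. Gata3 and Cux1, both highest in inner root sheath-like cells in vivo, went opposite ways.

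Foxn1 changed the most. It stood at 4.78 and 4.56 CPM in FBS and at 0.417 and 0.285 CPM in atRA+PKCi, a log2 fold change of -3.72 ± 0.31 (SE, adjusted p = 1.52e-05). Summed suprabasal epidermal markers moved with it, from 3874 and 4058 CPM to 262 and 219 CPM, and their part in the result was not tested. Dlx3 fell from 9.75 and 7.57 to 4.20 and 4.44 CPM (log2 fold change -1.004 ± 0.18, adjusted p = 0.00158). In bulk samples, fewer cells that express a gene and less RNA of it per cell cannot be told apart.

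Among the genes that rose, Gata3 went from 14.3 and 10.7 to 21.7 and 19.5 CPM (log2 fold change 0.72 ± 0.14, adjusted p = 0.00241). Msx2 rose from 4.27 and 4.64 to 7.25 and 6.43 CPM (0.62 ± 0.13, adjusted p = 0.00373) and Foxq1 from 148 and 122 to 202 and 192 CPM (0.54 ± 0.09, adjusted p = 0.00103). The libraries of one medium did not reach into the range of the other for any of the 9, as was so for 74.5% of all genes. Cux1 fell from 228 and 194 to 166 and 154 CPM (-0.40 ± 0.09, adjusted p = 0.00564).

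The neighbors Dlx1 and Dlx2 went opposite ways. Dlx1 stood at 4.49 and 4.60 CPM in FBS and 6.16 and 6.53 CPM in atRA+PKCi (0.48 ± 0.16, adjusted p = 0.0336), and Dlx2 at 5.11 and 4.67 and then 3.78 and 2.91 CPM (-0.55 ± 0.20, adjusted p = 0.0437). Both calls sat near the threshold and were lost with DESeq2, at adjusted p = 0.208 and 0.139, and without single libraries, at up to 0.120 for Dlx1 (without the second wild-type atRA+PKCi library) and 0.206 for Dlx2 (without the same library). Msx1 was barely present, with 5 and 3 counts in FBS and 6 and 8 counts in atRA+PKCi, and was not called (adjusted p = 0.451).

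In Rxra cKO HFSCs the same change of medium called 4 of the 9 genes, where 43% of all genes were called (20.8% higher and 22.2% lower). The ranges of the media did not overlap for 7 of the 9, against 75.2% of all genes. Msx2 rose from 4.71 and 4.47 to 10.97 and 11.2 CPM (log2 fold change 1.27 ± 0.13, adjusted p = 8.36e-05) and Gata3 from 13.02 and 14.8 to 18.8 and 17.9 CPM (0.40 ± 0.14, adjusted p = 0.0440). Dlx2 fell from 4.89 and 5.57 to 1.91 and 2.31 CPM (-1.31 ± 0.20, adjusted p = 0.000973) and Dlx3 from 4.85 and 6.22 to 3.20 and 3.02 CPM (-0.83 ± 0.19, adjusted p = 0.00687). Foxn1, at 3.96 and 3.24 CPM in FBS and 4.40 and 2.91 CPM in atRA+PKCi, was not called (0.03 ± 0.25, adjusted p = 0.933, 95% interval -0.54 to 0.60). Summed suprabasal markers went from 2507 and 3020 CPM to 749 and 683 CPM in these lines. Their part in the Foxn1 result was not tested. Foxq1 at -0.09 and Cux1 at -0.18 on the log2 scale were not called either. Gata3's call sat at the threshold, with adjusted p = 0.0694 by DESeq2. It was lost without any single Rxra cKO library, with log2 fold changes from 0.34 to 0.49. That of Dlx3 was lost without the second Rxra cKO FBS library (log2 fold change -0.64).

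The test of the difference between genotypes, in which wild-type change minus Rxra cKO change was fitted directly, called 3 of the 9 genes, where 24.6% of all genes were called (11.3% higher and 13.3% lower). For Foxn1 the difference was -3.75 ± 0.40 on the log2 scale (adjusted p = 0.0003), for Foxq1 0.64 ± 0.13 (adjusted p = 0.00918) and for Msx2 -0.65 ± 0.18 (adjusted p = 0.0323). Thus Foxn1 fell and Foxq1 rose with the medium in wild-type cells, while neither was called in Rxra cKO. The rise of Msx2 was larger in Rxra cKO. The call for Msx2 was lost with DESeq2 (adjusted p = 0.142) and with a term for the mouse (replicate block, adjusted p = 0.0647). With edgeR it was also lost without a filter on low counts (adjusted p = 0.0654). The same held without several single libraries, at -0.73 without the first Rxra cKO FBS library and -0.57 without the second wild-type atRA+PKCi library. Without the first Rxra cKO atRA+PKCi library only Foxn1 was called, and Foxq1 had an adjusted p of 0.0586. For Dlx1 (0.62, adjusted p = 0.0881) and Dlx2 (0.77, adjusted p = 0.0818), a difference between genotypes was not shown.

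Between genotypes in FBS, 4 of the 9 genes were called, where 42.8% of all genes were (22.3% higher and 20.5% lower). The ranges of the genotypes did not overlap for 6 of the 9, against 68.4% of all genes. Msx1 was higher in Rxra cKO, at 1.98 and 2.07 CPM against 0.182 and 0.116 CPM, a log2 fold change of 3.72 ± 0.36 (adjusted p = 7.08e-05). Summed fibroblast markers were at 6.16 and 8.00 CPM in Rxra cKO and 10.5 and 6.75 CPM in wild-type FBS. The source of the Msx1 difference was not tested. Foxq1 was lower, at 36.8 and 36.7 CPM against 148 and 122 CPM (-1.88 ± 0.10, adjusted p = 2.49e-06). Cux1 was lower as well, at 149 and 135 CPM against 228 and 194 CPM (-0.57 ± 0.09, adjusted p = 0.00127), as was Dlx3 (-0.64 ± 0.18, adjusted p = 0.0188). DESeq2 did not call Dlx3 (adjusted p = 0.0874), and the call was lost without the first Rxra cKO FBS library (0.107) or the first wild-type FBS library (0.120).

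In atRA+PKCi, 7 of the 9 differed between genotypes, against 43.2% of all genes (23% higher and 20.2% lower). The ranges did not overlap for 9 of the 9, against 76.5% of all genes. Foxn1 was higher in Rxra cKO by 3.37 ± 0.31 on the log2 scale (adjusted p = 4.54e-05), Msx1 by 3.32 ± 0.33 (adjusted p = 6.7e-05), with 2.20 and 2.35 CPM against 0.192 and 0.253 CPM, and Msx2 by 0.69 ± 0.13 (adjusted p = 0.00209). Foxq1 was lower, at 33.6 and 35.4 CPM against 202 and 192 CPM (-2.51 ± 0.10, adjusted p = 3.92e-07), and so were Dlx1 (-1.07 ± 0.17, adjusted p = 0.000896), Dlx2 (-0.67 ± 0.21, adjusted p = 0.0275) and Cux1 (-0.35 ± 0.09, adjusted p = 0.0146). The calls for Dlx2 and Cux1 were lost without either Rxra cKO atRA+PKCi library and without the first wild-type atRA+PKCi library. Log2 fold changes then ran from -0.80 to -0.44 for Dlx2 and from -0.36 to -0.26 for Cux1. DESeq2 did not call Dlx2 (adjusted p = 0.118). Gata3 was not called in either medium, at 0.15 in FBS and -0.17 in atRA+PKCi. The medium and genotype comparisons share libraries and are not independent of each other. Each genotype rests on lines of 2 mice, so that a property of those lines and the genotype cannot be told apart.

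**Figure D4:**
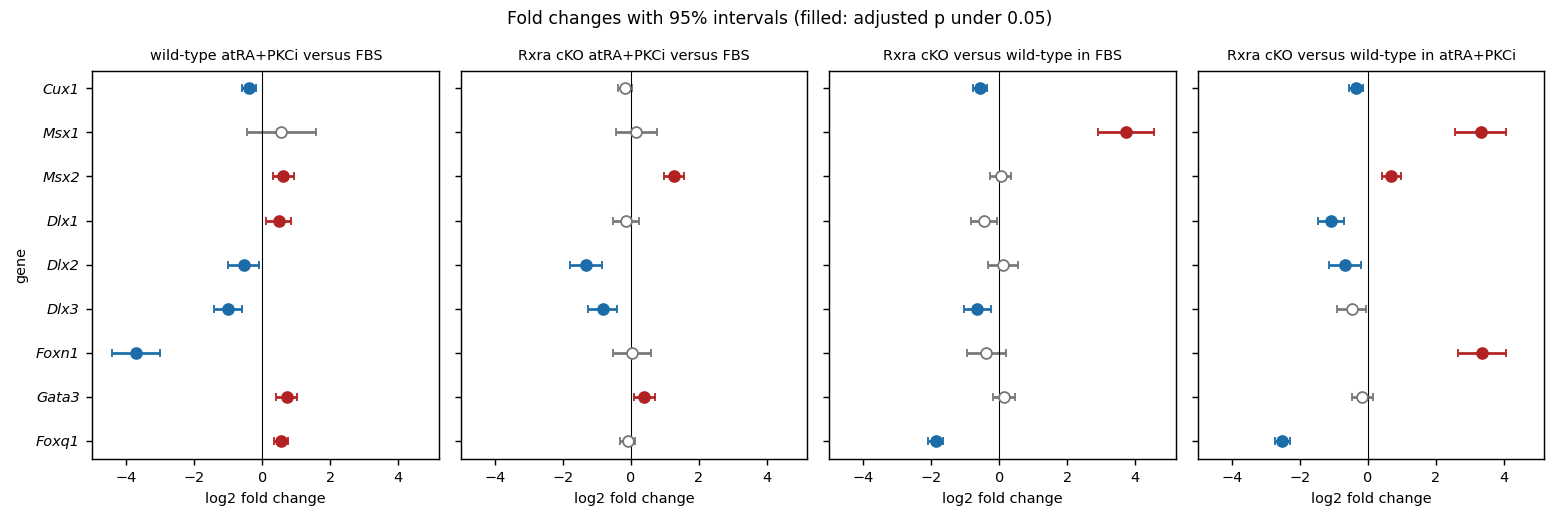
Log2 fold changes of the 9 genes (x axes, log2 scale) in 4 comparisons of cultured HFSCs by edgeR, with 95% intervals. Filled red points were called higher and filled blue points lower at adjusted p under 0.05, and open points were not called; Foxn1 is called lower with medium in wild-type and is not called in Rxra cKO, and Msx1 and Foxq1 separate the genotypes in both media.

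The wider set of hair regulators gives the setting. Of the 32 listed, 25 passed the filter. In wild-type atRA+PKCi, 8 were higher and 11 lower than in FBS (median log2 fold change -0.28), led by Prdm1 (-5.18), Elf5 (-4.13), Dlx5 (-3.34) and Grhl1 (-2.95). In Rxra cKO, 5 were higher and 6 lower (median -0.04), led by Elf5 (-3.08), Prdm1 (-2.55), Barx2 (1.64) and Ovol1 (-1.50). By the interaction, 2 were higher and 7 lower, with Dlx5 at -2.74 and Prdm1 at -2.63. Dlx5, another distal-less gene, thus fell with Dlx2 and Dlx3 in wild-type cells, while Dlx1 was called higher. The calls of Dlx1 and Dlx2 were lost with DESeq2. Medians over all genes were 0.03, 0.02 and 0.01 for these comparisons, and 53.9%, 43% and 24.6% of all genes were called in them.

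Terminal hair genes were mostly below the filter. Of 15 hair shaft keratins measured, 5 were tested. In wild-type atRA+PKCi 4 were higher and 1 lower than in FBS, with the cuticle keratin Krt32 up by 5.55 on the log2 scale. Its group mean went from 0.13 CPM in wild-type FBS to 6.33 CPM in wild-type atRA+PKCi. In vivo, Krt32 was highest in suprabasal cells of the epidermis and infundibulum, at 13.2 and 5.53 CPM. In Rxra cKO only Krt32 of the 5 keratins was called, at 2.75. Over all genes, the change of medium called 53.9% in wild-type and 43% in Rxra cKO. Of 9 inner root sheath genes, 2 were tested. Tchh, which encodes trichohyalin of the sheath and medulla, fell by 2.63 in wild-type cells and rose by 0.95 in Rxra cKO, a difference of -3.58 (adjusted p = 3.2e-06), the same sign as that of Foxn1.

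Of 12 BMP response and pathway genes, 11 were tested. In wild-type atRA+PKCi, 4 were higher and 4 lower than in FBS, with Id4 at 2.58, Id2 at 1.35 and Smad7 at -1.94. Of all genes, 27.2% were called higher and 26.6% lower. Between genotypes in atRA+PKCi, 2 were higher and 8 lower in Rxra cKO (median -1.71, against 0.00 over all genes), among them Id4 (-2.45), Id2 (-2.22) and Id1 (-1.99). Of all genes, 23% were called higher and 20.2% lower there. Msx1 and Msx2, which are known BMP targets, were higher in the same comparison.

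The hashtagged cultures asked whether BMP and R-spondin, added to atRA+PKCi, bring HFSCs toward hair lineages. The matrices held 449 and 208 barcodes, and 222 and 78 cells passed as single cells, with no barcode shared between mice. For mouse 1 and mouse 2, the conditions held 5 and 10 cells in B-27, 2 and 1 in atRA+PKCi, 5 and 6 in Rspo, 113 and 13 in BMP2/4, 92 and 27 in Rspo+BMP2/4, and 5 and 21 with RARi added, and no cell was assigned to FBS. Conditions with at least 5 cells in both mice were tested as sums per mouse, and the atRA+PKCi culture alone, the direct control of the BMP2/4 culture, was too thin to be one of them. B-27 and BMP2/4 cultures therefore differ in atRA+PKCi as well as in BMP2/4. Of the 9 genes, 3 (Cux1, Foxq1 and Gata3) passed the filter on low counts, with 6265 genes tested in all.

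Cux1 was the most abundant. It measured 217 and 250 CPM in B-27, 682 and 824 CPM in BMP2/4 and 699 and 1079 CPM in Rspo+BMP2/4. In Rspo without BMP it was 255 and 193 CPM, and in atRA+PKCi, from 3 cells, 201 and 136 CPM. All 4 sums with BMP2/4 and no RARi lay above all 6 sums without it. At the study's threshold of adjusted p under 0.01 and a log2 fold change over 1, edgeR called none of the 3 genes in BMP2/4 relative to B-27, where 5.71% of all genes were called, 0.431% higher and 5.28% lower. Without the limit on the fold and at adjusted p under 0.05, 10.4% of all genes were called and again none of the 3. Cux1 had a log2 fold change of 1.78 ± 0.60 (adjusted p = 0.0643) and was called with DESeq2 (adjusted p = 0.00786), with hashtags assigned by share (0.00756) and with the mitochondrial limit raised to 20% (0.00375). At an unadjusted p under 0.05, 2 of the 3 genes passed, Cux1 and Gata3, as did 24.1% of all genes.

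Foxq1 measured 47.6 and 95.6 CPM in B-27, 143 and 149 CPM in BMP2/4 and 185 and 146 CPM in Rspo+BMP2/4, with a log2 fold change of 1.10 ± 0.54 in BMP2/4 against B-27 (adjusted p = 0.219). Gata3 measured 42.3 and 100 CPM in B-27, 28.9 and 33.3 CPM in BMP2/4 and 32.3 and 29.5 CPM in Rspo+BMP2/4 (-1.14 ± 0.46 in BMP2/4, adjusted p = 0.130). The B-27 sums rest on 8 and 22 UMIs for Gata3 and on 9 and 21 for Foxq1, and the 95% intervals of the fold changes ran from -2.11 to -0.17 and from -0.03 to 2.22, before adjustment.

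Adding Rspo to BMP2/4 called none of the 3 genes, nor any of the 6265 genes, with edgeR or DESeq2, and none of the 3 had an unadjusted p under 0.05 (44 genes, or 0.702%, did). The log2 fold change of Cux1 was 0.18, with a 95% interval of -1.004 to 1.36. Adding RARi gave 2798 CPM of Cux1 in mouse 1 and 941 CPM in mouse 2. The former came from 5 cells, of which 1 held 39% of the 269 UMIs. The fold change of 0.77 ± 0.57 was not called (adjusted p = 0.959), and again no gene was called by edgeR or DESeq2, with 232 genes (3.7%) at an unadjusted p under 0.05, none of them Cux1, Foxq1 or Gata3.

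**Figure D5:**
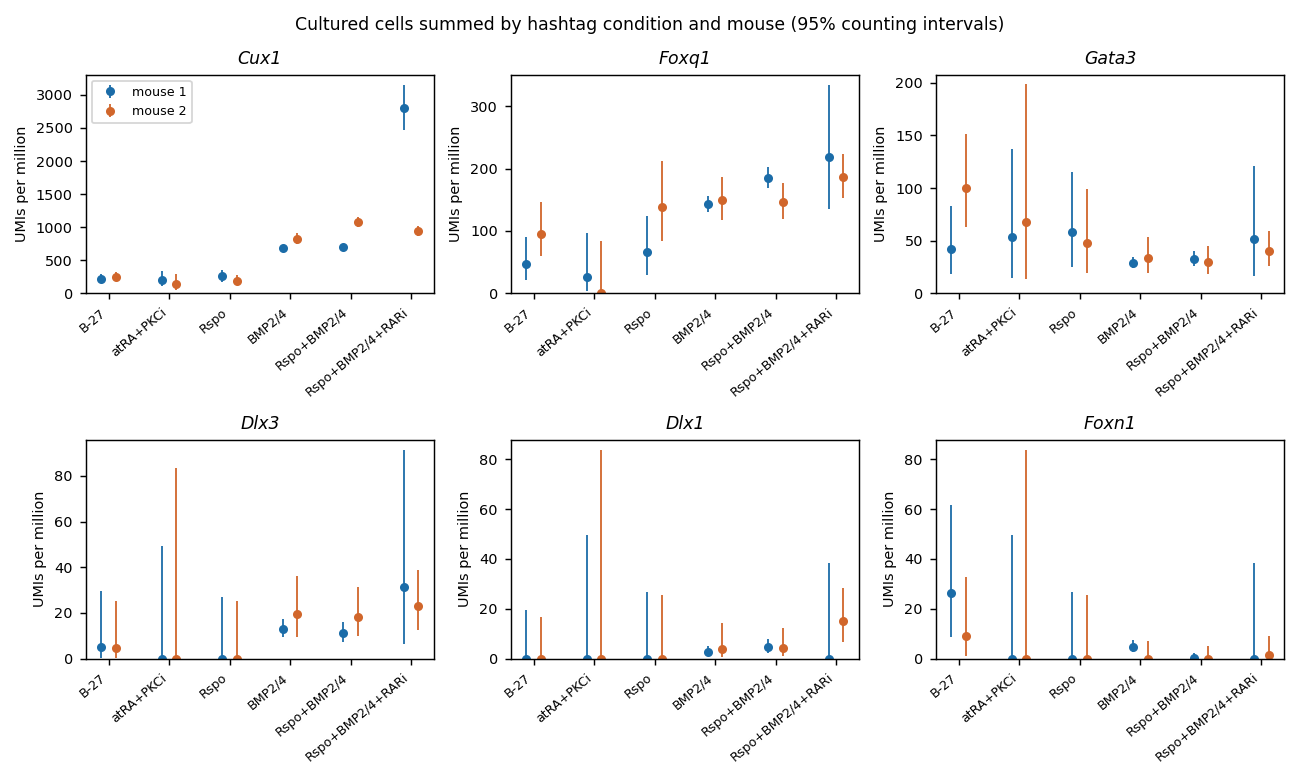
CPM (y axes, linear, each from 0) of 6 genes in cultured cells, summed by hashtag condition (x axes) and mouse (points), with 95% Poisson intervals that cover counting error only. Cux1 is at 682 or more in every sum with BMP2/4 and at 255 or less in every sum without it; sums of the atRA+PKCi culture rest on 2 cells and 1 cell.

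The other members were near the floor. Dlx3 had 1 UMI per mouse in B-27 and none in atRA+PKCi or Rspo, and 12.99 and 19.6 CPM in BMP2/4 (48 and 10 UMIs) and 11.1 and 18.3 CPM in Rspo+BMP2/4 (29 and 13 UMIs). Dlx1 had no UMI in B-27, atRA+PKCi or Rspo, and 2.71 and 3.92 CPM in BMP2/4, while Dlx2 had none in the same 3 media and 4.60 and 7.83 CPM in BMP2/4. A count of 0 in B-27 allows up to 15.9 and 13.7 CPM (3 counts), above these levels, so no difference can be read. Foxn1, also untested, had 26.5 and 9.10 CPM in B-27 from 5 and 2 UMIs, 4.60 CPM and none in BMP2/4, and 1 UMI in all Rspo+BMP2/4 cells together. These low counts depended on the mitochondrial limit. At a limit of 20%, Foxn1 had 10 UMIs in Rspo+BMP2/4 and 18 in BMP2/4 in mouse 1, and none of either in mouse 2. Dlx3 then had 2 and 1 UMIs in Rspo.

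Msx1 and Msx2 were not detected in any of the 657 barcodes of the cultured matrices, filtered or not. A count of 0 in 15775906 UMIs allows 0.190 CPM (3 counts). In vivo, matrix-like cells held 98.4 and 88.9 CPM of Msx1 and 139 and 131 CPM of Msx2. In RNA-seq of wild-type cultures Msx2 was at 4.27 to 7.25 CPM. The bulk and single cell cultures differ in the age and hair cycle stage of the mice, the lines and the protocol, and no test was made between them.

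Against the in vivo layers, the cultures in BMP2/4 held Cux1 near the level of matrix-like and cortex-like cells (682 and 824 against 626 and 756 CPM in the matrix), Foxq1 at 143 and 149 CPM between the matrix-like and medulla-like levels, Gata3 at 28.9 and 33.3 CPM, close to cortex-like and medulla-like cells, and Dlx3 at 12.99 and 19.6 CPM, as low as in fibroblast-like cells. These are values side by side from different preparations.

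Of 7 BMP response genes tested, 4 were called higher in BMP2/4 than in B-27 and none lower, with log2 fold changes of 3.97 for Id2, 3.55 for Id3, 3.31 for Id1 and 2.83 for Smad7. Of 13 other hair regulators tested, 3 were called lower, Prdm1 (-3.90), Barx2 (-2.60) and Klf4 (-2.09), and none higher. Over all genes, 0.431% were called higher and 5.28% lower. No hair shaft keratin and no inner root sheath gene passed the filter on low counts.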

How the data were processed

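The RNA-seq table holds estimated counts per gene that the authors made with Salmon 1.4.0 (per the labels) and deposited without normalization. They were rounded and tested with edgeR 4.0.16 (quasi-likelihood test, TMM, filterByExpr, 1 fit of 4 groups with 2 libraries each, Benjamini-Hochberg adjusted p under 0.05), with DESeq2 1.42.0 as an alternative. A normalized version of that table (8 columns) was not used. Single cell matrices hold raw UMI counts that the authors deposited from Cell Ranger (7.0.1 per the labels). In vivo cells with at least 500 genes, 1000 UMIs and under 10% mitochondrial UMIs were kept, Scrublet doublets removed, and cells clustered with scanpy 1.11.5 (Leiden, resolution 1) without the 9 genes, which were also kept out of the marker lists. A cluster was named from markers only, and classes were summed per mouse. Cultured cells were assigned with HTODemux in Seurat 5.3.0 (quantile 0.99), summed per mouse and condition (at least 5 cells in each mouse) and tested with edgeR, where a call needed a log2 fold change beyond 1 in size besides an adjusted p below 0.01. Steps with a test across genes were tested on simulated data.

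The labels tie FBS and atRA+PKCi cultures with the same number to 1 mouse within a genotype. Deviations of same-mouse libraries had a correlation of 0.135 (wild-type) and of -0.00082 (Rxra cKO) over 15965 genes, and those of 10 pairs of cultured conditions at -0.263 to 0.225. Intervals and limits for a count of 0 (3 counts) cover counting error only. The members and gene lists were chosen with earlier results of these data known. Besides the 9 genes, at most 4 genes per list and comparison were named, those with the largest change among called genes with a mean of at least 1 CPM, and for likeness the 3 genes with the highest r. Genome positions are from the GENCODE M21 annotation of GRCm38. Not analysed here were 5 CUT&RUN and 8 ATAC-seq samples.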

Additional observations from a re-analysis of the deposited data

Results flagged for a closer look

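For 3 of the 9 genes the effect of atRA+PKCi medium differed between wild-type and Rxra cKO cultures by the edgeR interaction test, which called 24.6% of all genes tested. The wild-type effect minus the Rxra cKO effect was -3.75 for Foxn1 (adjusted p = 0.0003), 0.64 for Foxq1 (adjusted p = 0.00918) and -0.65 for Msx2 (adjusted p = 0.0323) on the log2 scale. The call for Msx2 was lost with DESeq2, with a term for the mouse, without a filter on low counts and without several single libraries. Groups of 2 libraries are too small for a check of single libraries that stand apart.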

How the results depend on the processing

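Of the 9 genes, the counts called in the 5 RNA-seq comparisons, in the order given in the report, ranged when single libraries were left out from 6 to 7 for medium in wild-type, 2 to 4 for medium in Rxra cKO, 1 to 4 for the difference between genotypes in response, 3 to 4 between genotypes in FBS and 5 to 7 in atRA+PKCi. In cultured cells the count in BMP2/4 against B-27 became 1 (Cux1) with DESeq2, with a hashtag share of at least 70% and with under 20% mitochondrial UMIs, and it was 0 with any single mouse left out. A group with a library or mouse left out holds 1 sample, and the other groups supply its spread. The replicate block by mouse ended the call of Msx2 in the interaction (-0.65, adjusted p = 0.0647) and changed no other call. Signs turned for values that were not called. Without single libraries, for medium in Rxra cKO Dlx1 ran from -0.25 to 0.011 and Foxn1 from -0.28 to 0.29 (-0.11 without the second FBS library). Between genotypes in FBS Msx2 ran from -0.014 to 0.10 (-0.0099 without the first Rxra cKO library) and Gata3 from -0.046 to 0.37, and in the interaction Dlx3 ran from -0.36 to 0.022. In Rspo+BMP2/4 against BMP2/4, without single mice, Cux1 ran from -0.051 to 0.36, Gata3 from -0.23 to 0.11 (0.023 with the hashtag share) and Foxq1 from -0.16 to 0.39. With RARi Foxq1 ran from -0.24 to 0.32 (-0.19 without mouse 2 of the RARi culture, -0.050 without a filter on low counts and -0.18 with the mitochondrial limit of 20%). Gata3 was called in the interaction without the first wild-type FBS library (0.54, adjusted p = 0.0438). Over all genes, calls fell from 6861 to 4543 for medium in Rxra cKO without the first Rxra cKO atRA+PKCi library and from 3924 to 2458 and 2392 in the interaction without single libraries, and in BMP2/4 against B-27 the 358 calls became 650 at adjusted p under 0.05 with no limit on the fold and 615 with the hashtag share, and 61 to 233 without single mice. Without a filter on low counts, 8 genes were called in Rspo+BMP2/4 against BMP2/4 and 7 with RARi, where there had been 0, and up to 3 in the former without single mice. In vivo, 8 genes kept their highest class without either mouse, 7 at resolution 2, 7 with a stricter cell filter and 6 with doublets kept, where Cux1 and Dlx1 were highest in matrix-like and Msx2 in medulla-like cells. The cause was not tested. With 2 libraries per group, and B-27 sums of 5 and 10 cells, small changes are below what these data resolve.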
